A study of Mus musculus with 16 samples.

Results

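The genes described here make the machinery that copies DNA and the nucleotides it uses. The list of 37 mouse genes was drawn up by function, with no cut on their values, although earlier results of these arrays were known when it was made. Of these, 34 had a probe among the 16593 genes named on the arrays, and for a gene with several probes the one brightest on average over the 16 arrays was used. Gins1, Gins2 and Rfc3 were not analysed here. The arrays were Illumina bead arrays hybridised with biotinylated cRNA from mouse prostate. TRAMP mice carry SV40 T antigen under the probasin promoter, which is active in the epithelium of the prostate, and they were compared with wild-type mice.

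Of the neuroendocrine carcinomas (NECa) of TRAMP mice, 3 came from mice given AGN, a root extract of Angelica gigas Nakai, and 3 from mice given vehicle. They are set against 2 wild-type whole prostates, taken at 24 to 28 weeks of age, whose strain field names TRAMP although their genotype is given as wild type. The dorsal-lateral prostate lobes (DLP) were measured on 1 array for each combination of group and age. The groups were TRAMP mice given AGN, TRAMP mice given D/DA (decursin and decursinol angelate, pyranocoumarins of that root), TRAMP mice given vehicle, and C57BL/6 wild-type mice, each at 28 and at 16 weeks of age. The study's design text counts 14 and 10 AGN mice and 13 and 11 D/DA mice at 28 and 16 weeks. It is not stated whether each DLP array held pooled RNA, and neither the age of the carcinoma-bearing mice nor the doses are given in the sources used here. The p-values therefore measure the spread between these arrays.

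DNA replication begins with the loading of the MCM2-7 helicase onto origins by the origin recognition complex, Cdc6 and Cdt1, which geminin restrains. Cdc45, GINS and Mcm10 then turn the loaded complex into an active helicase, primase and DNA polymerases copy the strands, the clamp loader places the PCNA clamp, and DNA ligase I joins the fragments of the lagging strand. Ribonucleotide reductase, thymidylate synthase and thymidine kinase supply the deoxynucleotides, and the CAF-1 complex packs the new DNA with histones. Many of these genes are textbook targets of E2F transcription factors, which the retinoblastoma protein restrains, and SV40 T antigen binds the retinoblastoma protein. In a normal adult prostate most epithelial cells are not dividing.

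The deposited values are linear, normalized probe intensities that keep a background near 150: the median of an array lay between 151 and 166. Differences of genes near this level are compressed on the log2 scale. The labelled tissues carried their markers. Insm1, a transcription factor of neuroendocrine cells, read 4151, 5173 and 5607 in the AGN NECa and 4403, 4066 and 3676 in the vehicle NECa, against 138 and 153 in the wild-type prostates, and between 130 and 144 on all TRAMP DLP arrays. Some arrays stood apart. Among the 6 carcinomas, vehicle NECa 1 had the highest mean log2 level of 5 macrophage genes (10.7, against 8.94 and 9.27 in the other vehicle NECa) and of 7 smooth muscle genes (11.0, against 8.53 and 8.18). AGN NECa 2 had 8.80 for 8 prostate secretory genes, against 7.35 and 7.70 in the other AGN NECa. Skeletal muscle genes, of which 9 were measured, differed within the controls: 11.8 and 8.81 in wild-type prostates 1 and 2, and 11.6 and 8.26 in wild-type DLP at 28 and 16 weeks.

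In vehicle NECa, 29 of the 34 genes were higher than in wild-type prostate and 0 were lower (limma, adjusted p under 0.05 over all 25697 probes). Of all 16593 genes, 12.8% were called higher and 18.8% lower in this comparison. With normexp background correction, Orc1 and Pola1 were called lower, at -0.26 and -0.25 (limma adjusted p = 0.0123 and 0.0358), and 29 genes higher. The median log2 difference of the 34 genes as deposited was 2.14, against -0.01 over all genes. In vehicle DLP, fitted over both ages, 27 of the 34 genes were higher than in wild-type DLP and 0 were lower, where 3.41% of all genes were called higher and 5.15% lower. The median difference there was 1.05, against -0.07 over all genes. All 27 genes called in DLP were also called in NECa, 2 were called in NECa and not in DLP (Rrm2 and Pold2), and 5 in neither. The tissues are bulk samples, in which fewer cells of a type and less RNA per cell cannot be told apart.

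The groups were also apart array by array. For 31 of the 34 genes all 6 NECa arrays read above both wild-type prostates, which held for 18.7% of all genes. For 29 of the 34 genes all 6 TRAMP DLP arrays read above both wild-type DLP arrays, which held for 8.59% of all genes. For 22 of the 34 genes the 6 NECa arrays read above all 6 TRAMP DLP arrays, which held for 23.1% of all genes.

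**Figure D1:**
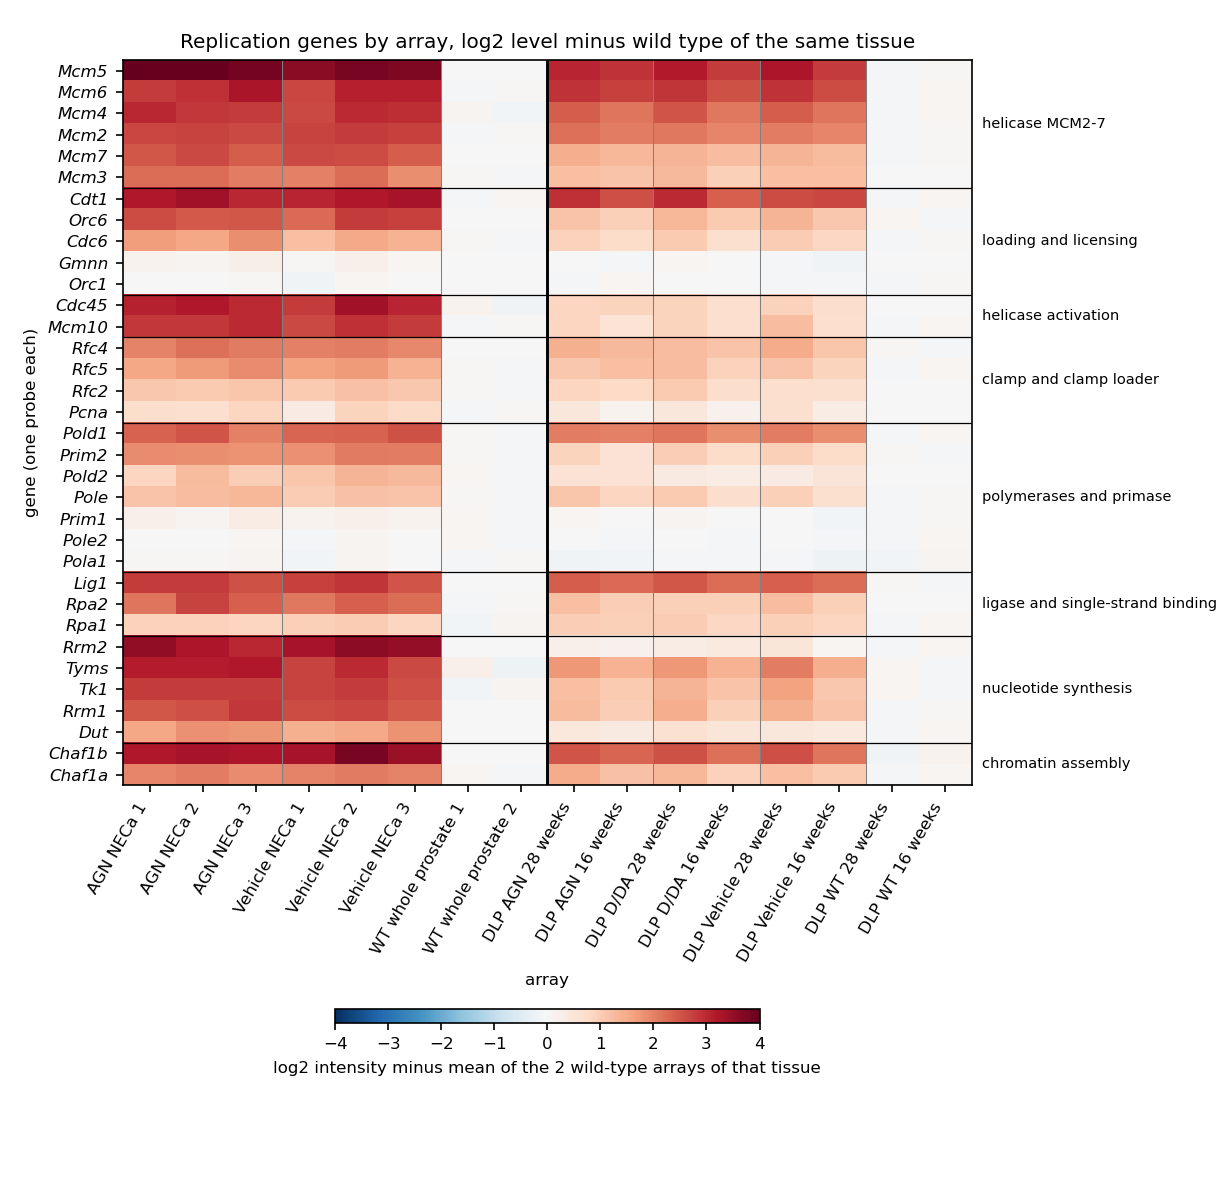
Log2 intensity of the 34 genes (rows, by role) on the 16 arrays (columns), minus the mean of the 2 wild-type arrays of the same tissue. Mcm5, Cdt1 and Chaf1b are dark in NECa and in TRAMP DLP, while Rrm2, Cdc45 and Mcm10 are dark in NECa and pale in TRAMP DLP.

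Other cell types moved with these contrasts. In vehicle NECa against wild-type prostate, 8 of 8 prostate secretory, 3 of 4 luminal, 4 of 5 basal, 7 of 7 smooth muscle, 8 of 9 skeletal muscle and 6 of 8 adipocyte genes were lower, and 8 of 10 neuroendocrine genes were higher. The summed intensity of the secretory genes was 1317 to 7807 in AGN NECa and 1180 to 1239 in vehicle NECa, against 264752 to 297496 in the wild-type prostates. Tgm4 and Pbsn, which mark prostate secretory epithelium, read 142 to 158 on all NECa arrays, near the array medians. Other secretory genes stood above this level on some AGN NECa arrays. On AGN NECa 2, Defb50 read 3233, Msmb 2777, Azgp1 651 and Spink1 556, and on AGN NECa 3, Defb50 read 435 and Msmb 297. In vehicle DLP against wild-type DLP, 5 of 8 secretory genes were lower, 4 of 8 adipocyte genes were higher, and 0 of 4 luminal, 0 of 10 neuroendocrine and 0 of 5 macrophage genes were called. The mean log2 level of the luminal genes was 10.7 to 10.9 in TRAMP DLP and 10.8 on both wild-type DLP arrays. The part of cell composition in the differences below was not tested.

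The promoters of the genes with the largest differences in DLP are shown next, because the list holds many textbook targets of E2F. Each is the RefSeq window of build GRCm38.p6 from 250 bases before to 50 after the annotated start, read 5′ to 3′ on the gene's strand, with the 8-base E2F words TTTCCCGC, TTTCGCGC, TTTGCCGC and TTTGGCGC, on either strand, in capitals. The windows are those of Mcm5 (chr8:75109259-75109558, plus strand), Mcm6 (chr1:128359656-128359955, minus strand), Cdt1 (chr8:122567765-122568064, plus strand) and Chaf1b (chr16:93883651-93883950, plus strand). That of Rrm2 (chr12:24708004-24708303, plus strand), whose DLP difference was among the smallest, was added after its values were seen.
Mcm5: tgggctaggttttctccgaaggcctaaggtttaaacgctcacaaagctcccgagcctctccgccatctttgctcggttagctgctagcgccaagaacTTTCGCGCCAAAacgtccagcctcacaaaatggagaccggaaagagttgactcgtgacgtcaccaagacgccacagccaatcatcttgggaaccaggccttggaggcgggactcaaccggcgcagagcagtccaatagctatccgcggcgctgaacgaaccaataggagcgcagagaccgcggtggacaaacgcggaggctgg
Mcm6: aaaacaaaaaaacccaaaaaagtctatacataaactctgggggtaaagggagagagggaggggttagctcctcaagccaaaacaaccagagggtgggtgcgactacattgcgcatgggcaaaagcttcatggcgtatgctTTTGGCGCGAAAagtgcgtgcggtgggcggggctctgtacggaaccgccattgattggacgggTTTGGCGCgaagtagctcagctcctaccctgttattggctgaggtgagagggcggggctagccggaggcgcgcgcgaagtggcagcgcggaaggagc
Cdt1: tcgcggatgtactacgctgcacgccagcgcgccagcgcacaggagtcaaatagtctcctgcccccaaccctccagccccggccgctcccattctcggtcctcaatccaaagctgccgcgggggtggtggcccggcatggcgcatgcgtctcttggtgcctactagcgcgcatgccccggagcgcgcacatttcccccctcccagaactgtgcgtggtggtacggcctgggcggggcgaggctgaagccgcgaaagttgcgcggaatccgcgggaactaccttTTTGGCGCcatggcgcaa
Chaf1b: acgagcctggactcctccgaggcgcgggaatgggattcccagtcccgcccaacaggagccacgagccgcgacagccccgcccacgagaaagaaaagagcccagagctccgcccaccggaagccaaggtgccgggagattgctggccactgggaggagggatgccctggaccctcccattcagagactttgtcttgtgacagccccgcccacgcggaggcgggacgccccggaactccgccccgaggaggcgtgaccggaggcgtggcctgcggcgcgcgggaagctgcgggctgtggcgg
Rrm2: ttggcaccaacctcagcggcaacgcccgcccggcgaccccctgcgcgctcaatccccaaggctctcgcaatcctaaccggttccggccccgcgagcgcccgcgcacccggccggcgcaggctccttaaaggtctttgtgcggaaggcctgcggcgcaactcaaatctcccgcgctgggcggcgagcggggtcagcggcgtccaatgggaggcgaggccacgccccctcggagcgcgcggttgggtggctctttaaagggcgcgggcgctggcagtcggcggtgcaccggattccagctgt

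Mcm5 held 2 such words that overlap, at -153 and -149 from the start. Mcm6 held 3, of which those at -110 and -106 overlap and 1 lies at -47. Cdt1 held 1, at position 33 after the start. Chaf1b and Rrm2 held 0 in these windows. A window was found for 30 of the 37 listed genes, and 12 of these 30 (40%) had an E2F word in at least 1 window, against 3.55% of the 13336 array genes with a window. By window the share was 12 of 34 (35.3%), against 3.02% of the windows of array genes and 744 of all 32851 RefSeq windows of the same length (2.26%). The 12 genes were Mcm3, Mcm5, Mcm6, Mcm7, Orc1, Cdc6, Cdt1, Rfc3, Pola1, Pold1, Pole2 and Lig1. Of these, Orc1, Pola1 and Pole2 were called in neither vehicle NECa nor vehicle DLP as deposited, and Rfc3 was not analysed. The CCAAT word of NF-Y, searched on both strands, was in 58.8% of the 34 windows and 37.4% of all windows. The word TTTGAA of the cell cycle homology region was in 8.82% of the 34 windows and 17.9% of all windows. A match is a description of the letters in the window and not a binding site.

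The MCM2-7 helicase unwinds DNA ahead of the polymerases, and its 6 subunit genes were all higher in vehicle NECa and in vehicle DLP. Mcm5 had the largest difference of the 34 genes in both tissues. Its probe read 5162, 5094 and 4535 in the AGN NECa and 3882, 4375 and 4242 in the vehicle NECa, against 316 and 318 in the wild-type prostates. In the dorsal-lateral lobes it read 2390 and 2144 in AGN DLP at 28 and 16 weeks, 2636 and 2042 in D/DA DLP and 2751 and 2019 in vehicle DLP, against 284 and 298 in wild-type DLP. The 6 TRAMP DLP arrays overlapped neither with wild-type DLP nor with the carcinomas. The log2 difference of Mcm5 from wild type, given with the standard error of its fit, was 3.72 ± 0.14 in vehicle NECa (limma adjusted p = 1.96e-08) and 3.02 ± 0.15 in vehicle DLP (limma adjusted p = 5.97e-05).

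Mcm6 stood as high in TRAMP DLP as in some carcinomas. Its probe read 2145, 2332 and 2923 in the AGN NECa and 1946, 2652 and 2629 in the vehicle NECa, against 294 and 319 in the wild-type prostates. In DLP it read 2253 and 1997 in AGN DLP at 28 and 16 weeks, 2198 and 1775 in D/DA DLP and 2239 and 1867 in vehicle DLP, against 286 and 322 in wild-type DLP. Vehicle NECa 1 and AGN NECa 1 lay within the range of the TRAMP DLP arrays, while no TRAMP array came near wild type. The log2 difference was 2.96 ± 0.19 in vehicle NECa (limma adjusted p = 5.16e-07) and 2.75 ± 0.15 in vehicle DLP (limma adjusted p = 7.93e-05). Among the promoters shown above, those of Mcm5 and Mcm6 held several E2F words. Of the subunits not shown, Mcm3 and Mcm7 each had a window with 2 words, and that of Mcm2 held 0. A relation between these words and the size of the difference was not tested.

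Mcm3 had the smallest MCM2-7 difference in NECa. It read 760, 757 and 669 in the AGN NECa and 650, 766 and 589 in the vehicle NECa, against 168 and 154 in the wild-type prostates. The DLP readings were 358 and 341 in AGN DLP at 28 and 16 weeks, 382 and 301 in D/DA DLP and 354 and 353 in vehicle DLP, against 154 and 156 in wild-type DLP. The carcinomas, TRAMP DLP and wild-type tissue did not overlap. Its log2 difference was 2.04 ± 0.15 in vehicle NECa (limma adjusted p = 1.26e-06) and 1.19 ± 0.11 in vehicle DLP (limma adjusted p = 0.000646). The other subunits, Mcm2, Mcm4 and Mcm7, differed by 2.75, 2.86 and 2.56 in vehicle NECa and by 2.01, 2.28 and 1.33 in vehicle DLP. Mcm3 and Mcm7 thus had the smallest DLP differences of the 6 subunits.

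**Figure D2:**
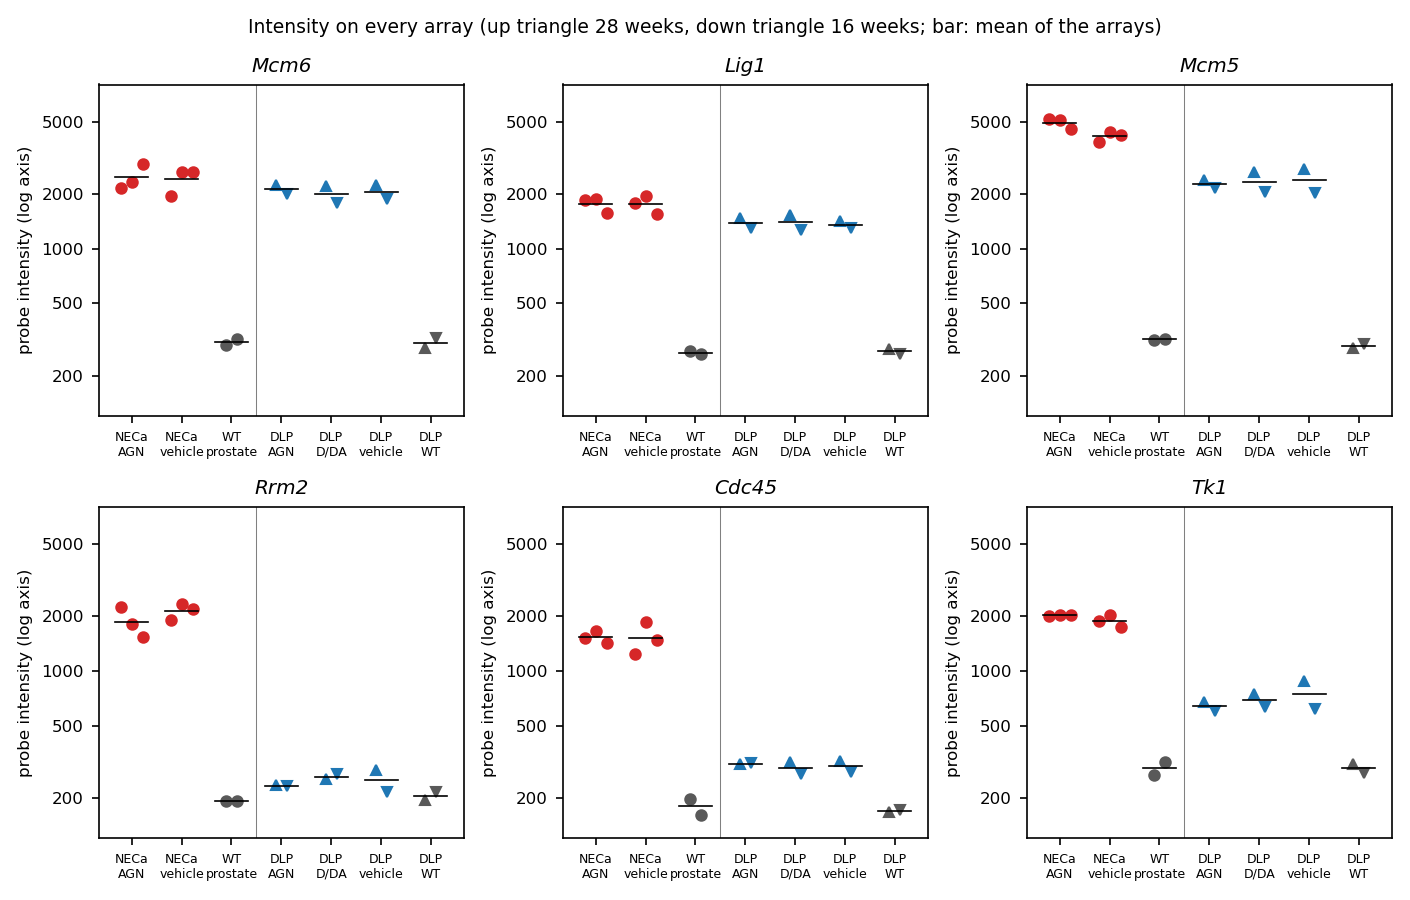
Probe intensity on a log axis of 6 genes on every array, by group, with 28-week DLP arrays as up triangles, 16-week DLP arrays as down triangles and bars at the mean of the arrays. For Mcm6 and Lig1 the TRAMP DLP arrays lie close to the carcinomas, for Rrm2 and Cdc45 they lie close to wild type, and Mcm5 and Tk1 are in between.

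Of the 5 loading and licensing genes, 3 were higher in both tissues. Cdt1, which brings MCM2-7 to origins, read 2032, 2286 and 1788 in the AGN NECa and 1816, 2047 and 2174 in the vehicle NECa, against 209 and 233 in the wild-type prostates. On the DLP arrays the probe read 1748 and 1388 in AGN DLP at 28 and 16 weeks, 1808 and 1199 in D/DA DLP and 1389 and 1475 in vehicle DLP, against 219 and 241 in wild-type DLP. The highest TRAMP DLP reading passed the lowest carcinoma reading, and all TRAMP arrays were far above wild type. Its log2 difference was 3.19 ± 0.17 in vehicle NECa (limma adjusted p = 1.19e-07) and 2.64 ± 0.18 in vehicle DLP (limma adjusted p = 0.00018), the third-largest there after Mcm5 and Mcm6.

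Orc6, a subunit of the origin recognition complex, behaved differently. It read 2916, 2576 and 2663 in the AGN NECa and 2275, 3311 and 3150 in the vehicle NECa, against 473 and 476 in the wild-type prostates. Its DLP intensities were 1169 and 1014 in AGN DLP at 28 and 16 weeks, 1332 and 1090 in D/DA DLP and 1365 and 1108 in vehicle DLP, against 552 and 504 in wild-type DLP. The carcinomas, TRAMP DLP and wild-type tissue formed 3 separate ranges. Against wild type it differed by 2.60 ± 0.18 in vehicle NECa (limma adjusted p = 8.71e-07) and 1.22 ± 0.11 in vehicle DLP (limma adjusted p = 0.000803). Cdc6, an ATPase of the loading step, differed by 1.38 in vehicle NECa and by 0.93 in vehicle DLP.

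Orc1, the largest origin recognition subunit, had the smallest difference of this group in NECa, and its probe was at or below the array median on all 16 arrays. It read 145, 141 and 148 in the AGN NECa and 129, 152 and 147 in the vehicle NECa, against 142 and 146 in the wild-type prostates. DLP arrays gave 131 and 142 in AGN DLP at 28 and 16 weeks, 137 and 135 in D/DA DLP and 128 and 128 in vehicle DLP, against 131 and 141 in wild-type DLP. The groups overlapped throughout, with log2 differences of -0.02 (95% interval -0.16 to 0.13, limma adjusted p = 0.918) in vehicle NECa and -0.08 (95% interval -0.20 to 0.03, limma adjusted p = 0.285) in vehicle DLP. Gmnn, which encodes the Cdt1 inhibitor geminin, was at or below the array median on 15 of 16 arrays and differed by 0.11 (limma adjusted p = 0.276) in vehicle NECa. A probe at this level cannot show whether the gene is expressed.

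Both measured genes of helicase activation were higher in NECa and, by less, in DLP. Cdc45, a component of the active helicase, read 1519, 1665 and 1427 in the AGN NECa and 1241, 1853 and 1471 in the vehicle NECa, against 199 and 161 in the wild-type prostates. In DLP it read 306 and 311 in AGN DLP at 28 and 16 weeks, 314 and 270 in D/DA DLP and 321 and 276 in vehicle DLP, against 167 and 172 in wild-type DLP. All TRAMP DLP arrays were above wild-type DLP, but the lowest carcinoma was far above the highest of them. In the fit the log2 difference was 3.07 ± 0.19 in vehicle NECa (limma adjusted p = 3.73e-07) and 0.82 ± 0.10 in vehicle DLP (limma adjusted p = 0.00258).

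Mcm10, a helicase activation factor that is not a subunit of MCM2-7, showed the same order. It read 1422, 1414 and 1581 in the AGN NECa and 1258, 1509 and 1382 in the vehicle NECa, against 193 and 208 in the wild-type prostates. The DLP readings were 405 and 322 in AGN DLP at 28 and 16 weeks, 411 and 352 in D/DA DLP and 525 and 356 in vehicle DLP, against 211 and 234 in wild-type DLP. Vehicle DLP at 28 weeks was the highest DLP reading, and no DLP reading came near the carcinomas. Relative to wild type the difference was 2.78 ± 0.15 in vehicle NECa (limma adjusted p = 1.54e-07) and 0.96 ± 0.15 in vehicle DLP (limma adjusted p = 0.00768, or 0.0826 without vehicle DLP at 28 weeks).

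The clamp and clamp loader genes were all called higher in both tissues, 4 of 4 measured. Rfc4, a clamp loader subunit, had the largest difference of them in NECa. It read 796, 925 and 843 in the AGN NECa and 816, 830 and 764 in the vehicle NECa, against 198 and 205 in the wild-type prostates. On the DLP arrays the probe read 808 and 740 in AGN DLP at 28 and 16 weeks, 710 and 672 in D/DA DLP and 855 and 652 in vehicle DLP, against 311 and 296 in wild-type DLP. Carcinomas and TRAMP DLP overlapped, and wild-type DLP read higher than wild-type prostate. Rfc4 differed by 1.99 ± 0.14 in vehicle NECa (limma adjusted p = 7.82e-07) and by 1.30 ± 0.12 in vehicle DLP (limma adjusted p = 0.000706).

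Pcna, the sliding clamp that tethers the polymerases, had the smallest difference among the 29 genes called in NECa. Its probe was dim. It read 267, 259 and 295 in the AGN NECa and 208, 306 and 276 in the vehicle NECa, against 158 and 170 in the wild-type prostates. Its DLP intensities were 223 and 181 in AGN DLP at 28 and 16 weeks, 225 and 184 in D/DA DLP and 258 and 200 in vehicle DLP, against 166 and 161 in wild-type DLP. All TRAMP arrays lay above the wild-type arrays of their tissue, and vehicle NECa 1 lay among the DLP arrays. The log2 difference was 0.66 ± 0.15 in vehicle NECa (limma adjusted p = 0.00537) and 0.47 ± 0.09 in vehicle DLP (limma adjusted p = 0.0193). The DLP call was lost without vehicle DLP at 28 weeks (limma adjusted p = 0.136), vehicle DLP at 16 weeks (0.0709) or AGN DLP at 16 weeks (0.0518). The loader subunits Rfc5 and Rfc2 differed by 1.57 and 1.11 in vehicle NECa and by 1.01 and 0.66 in vehicle DLP. Without vehicle DLP at 28 weeks the DLP calls of Rfc5 (limma adjusted p = 0.0727) and Rfc2 (0.118) were lost too, so 1 of the 4 clamp and loader genes, Rfc4, was still called. Rfc2 was also lost without vehicle DLP at 16 weeks (0.181) or AGN DLP at 28 (0.0682) or 16 weeks (0.068), and with array weights (0.0501).

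Of 7 polymerase and primase genes, 4 were higher in NECa and 3 in DLP. Pold1, the catalytic subunit of polymerase delta, read 2566, 2896 and 2045 in the AGN NECa and 2549, 2566 and 2949 in the vehicle NECa, against 523 and 485 in the wild-type prostates. DLP arrays gave 1938 and 1887 in AGN DLP at 28 and 16 weeks, 2057 and 1688 in D/DA DLP and 1913 and 1690 in vehicle DLP, against 445 and 490 in wild-type DLP. AGN NECa 3 lay below the highest TRAMP DLP array, and every TRAMP array was well above wild type. Against wild type it differed by 2.41 ± 0.18 in vehicle NECa (limma adjusted p = 1.23e-06) and 1.95 ± 0.14 in vehicle DLP (limma adjusted p = 0.00018). Prim2, the large primase subunit, differed by 1.99 in vehicle NECa and 0.85 in vehicle DLP, and Pole, the catalytic subunit of polymerase epsilon, by 1.10 and 0.79.

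Pold2, the regulatory subunit of polymerase delta, differed by 1.25 ± 0.17 in vehicle NECa (limma adjusted p = 0.000145) and was not called in vehicle DLP, where it differed by 0.41 ± 0.11 (limma adjusted p = 0.0632). Pola1, the catalytic subunit of polymerase alpha, read 146, 147 and 153 in the AGN NECa and 133, 154 and 141 in the vehicle NECa, against 139 and 147 in the wild-type prostates, and its 8 DLP readings lay between 128 and 158. Pole2, a subunit of polymerase epsilon, read 141, 145 and 150 in the AGN NECa and 134, 153 and 143 in the vehicle NECa, against 150 and 135 in the wild-type prostates, and its DLP readings lay between 130 and 146. Both probes were at or below the array median on all 16 arrays. With the deposited values and no array left out, neither was called in any comparison with wild type. Prim1, the catalytic primase subunit, was at or below the median on 12 arrays. Its difference was 0.16 in vehicle NECa (limma adjusted p = 0.146).

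Ligase and single-strand binding genes were higher in both tissues, 3 of 3. Lig1, which seals nicks between lagging-strand fragments, read 1859, 1864 and 1576 in the AGN NECa and 1784, 1940 and 1550 in the vehicle NECa, against 273 and 264 in the wild-type prostates. In DLP it read 1469 and 1303 in AGN DLP at 28 and 16 weeks, 1527 and 1271 in D/DA DLP and 1421 and 1293 in vehicle DLP, against 280 and 264 in wild-type DLP. The carcinomas were above the TRAMP DLP arrays by a narrow margin, and both were far above wild type. In the fit the log2 difference was 2.71 ± 0.16 in vehicle NECa (limma adjusted p = 2.92e-07) and 2.32 ± 0.11 in vehicle DLP (limma adjusted p = 5.97e-05).

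Rpa1, the largest subunit of the complex that coats single-stranded DNA, was the gene with the most similar difference in both tissues. It read 6617, 6535 and 6274 in the AGN NECa and 6780, 7014 and 6252 in the vehicle NECa, against 3256 and 3714 in the wild-type prostates. The DLP readings were 7778 and 7666 in AGN DLP at 28 and 16 weeks, 8066 and 7071 in D/DA DLP and 7672 and 7133 in vehicle DLP, against 3775 and 4137 in wild-type DLP. Every TRAMP DLP array read above every carcinoma. Relative to wild type the difference was 0.94 ± 0.12 in vehicle NECa (limma adjusted p = 9.95e-05) and 0.90 ± 0.13 in vehicle DLP (limma adjusted p = 0.00517, or 0.0847 and 0.0589 without vehicle DLP at 28 or 16 weeks). Rpa2, another subunit, differed by 2.24 in vehicle NECa and by 1.08 in vehicle DLP, so the subunits of this complex did not keep 1 ratio between the tissues.

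All 5 nucleotide synthesis genes were higher in NECa, and 4 of them in DLP. Rrm2, the small subunit of ribonucleotide reductase, read 2238, 1818 and 1544 in the AGN NECa and 1905, 2321 and 2191 in the vehicle NECa, against 193 and 193 in the wild-type prostates. On the DLP arrays the probe read 236 and 232 in AGN DLP at 28 and 16 weeks, 254 and 270 in D/DA DLP and 286 and 217 in vehicle DLP, against 195 and 217 in wild-type DLP. The carcinomas were far above all other arrays, while vehicle DLP at 16 weeks read 217, as did wild-type DLP of that age. The log2 difference was 3.47 ± 0.18 in vehicle NECa (limma adjusted p = 1.27e-07) and 0.27 ± 0.13 in vehicle DLP (95% interval -0.01 to 0.56, limma adjusted p = 0.198). Rrm1, the large subunit of the same enzyme, was called in both tissues, at 2.57 ± 0.16 in vehicle NECa (limma adjusted p = 3.98e-07) and 1.29 ± 0.15 in vehicle DLP (limma adjusted p = 0.00196).

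Tk1, which phosphorylates salvaged thymidine, had an intermediate place. It read 2008, 2025 and 2033 in the AGN NECa and 1883, 2035 and 1753 in the vehicle NECa, against 269 and 314 in the wild-type prostates. Its DLP intensities were 671 and 605 in AGN DLP at 28 and 16 weeks, 743 and 635 in D/DA DLP and 885 and 614 in vehicle DLP, against 306 and 276 in wild-type DLP. The 3 kinds of tissue did not overlap. Against wild type it differed by 2.70 ± 0.15 in vehicle NECa (limma adjusted p = 1.90e-07) and 1.34 ± 0.12 in vehicle DLP (limma adjusted p = 0.000749). Tyms, which makes thymidylate from deoxyuridylate, differed by 2.77 in vehicle NECa and by 1.75 in vehicle DLP.

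Dut, which removes dUTP, had the smallest NECa difference of the nucleotide genes. It read 592, 713 and 690 in the AGN NECa and 538, 571 and 693 in the vehicle NECa, against 201 and 201 in the wild-type prostates. DLP arrays gave 244 and 235 in AGN DLP at 28 and 16 weeks, 279 and 257 in D/DA DLP and 249 and 242 in vehicle DLP, against 173 and 195 in wild-type DLP. TRAMP DLP was above wild-type DLP on every array but close to it. In the fit the log2 difference was 1.57 ± 0.15 in vehicle NECa (limma adjusted p = 1.12e-05) and 0.42 ± 0.09 in vehicle DLP (limma adjusted p = 0.0295). The DLP call was lost in 7 alternative settings, at a limma adjusted p of 0.149 and 0.151 without vehicle DLP at 28 or 16 weeks, 0.0756 and 0.0759 without AGN DLP at 28 or 16 weeks, and 0.0747 without wild-type DLP at 28 weeks.

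The chromatin assembly genes encode subunits of CAF-1. Chaf1b read 2004, 2133 and 2048 in the AGN NECa and 2161, 3026 and 2416 in the vehicle NECa, against 216 and 221 in the wild-type prostates. In DLP it read 1270 and 1117 in AGN DLP at 28 and 16 weeks, 1319 and 1018 in D/DA DLP and 1342 and 984 in vehicle DLP, against 202 and 247 in wild-type DLP. Vehicle NECa 2 was the highest array, and the tissues did not overlap. Relative to wild type the difference was 3.52 ± 0.17 in vehicle NECa (limma adjusted p = 6.80e-08) and 2.36 ± 0.17 in vehicle DLP (limma adjusted p = 0.000228). Its partner Chaf1a read 760, 807 and 733 in the AGN NECa and 784, 840 and 772 in the vehicle NECa, against 208 and 187 in the wild-type prostates. In DLP Chaf1a read 493 and 400 in AGN DLP at 28 and 16 weeks, 445 and 335 in D/DA DLP and 404 and 365 in vehicle DLP, against 165 and 188 in wild-type DLP. It differed by 2.02 in vehicle NECa and by 1.12 in vehicle DLP, less than Chaf1b in either tissue.

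**Figure D3:**
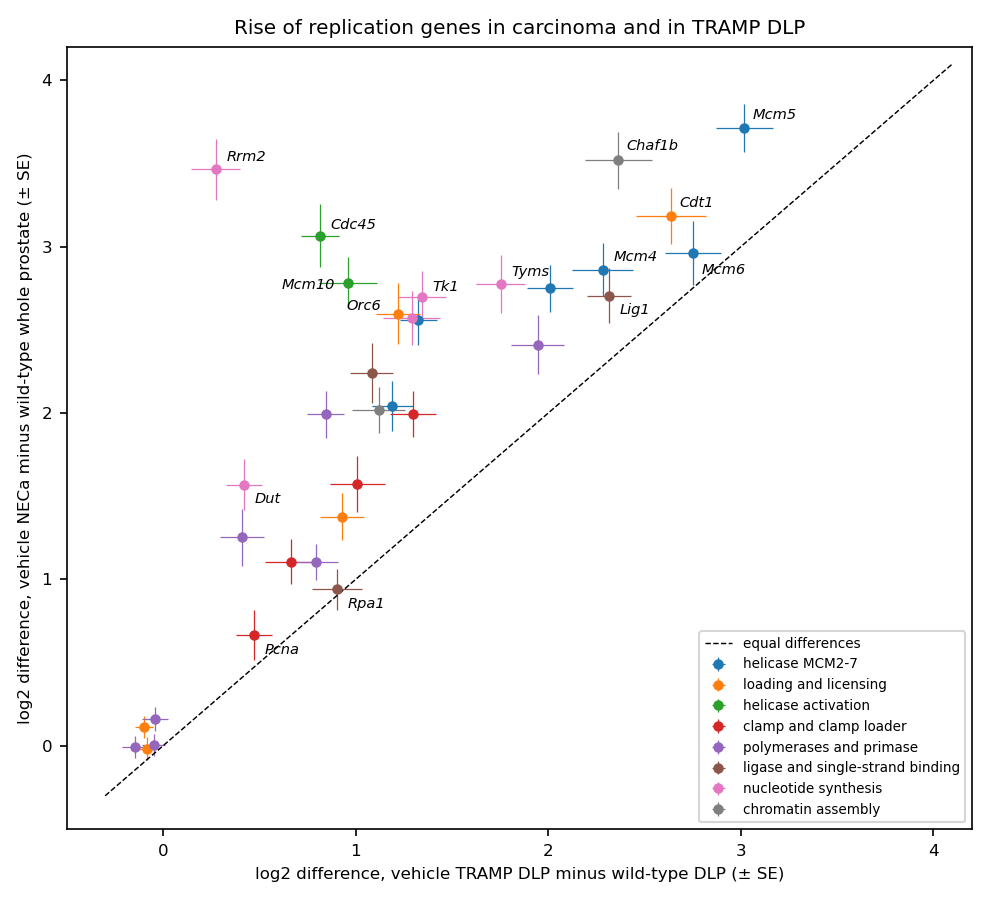
Log2 difference of each of the 34 genes in vehicle NECa against wild-type whole prostate (y) and in vehicle DLP against wild-type DLP (x), with standard errors, coloured by role. All 34 points lie above the dashed line of equal differences, Rpa1 and Mcm6 close to it and Rrm2 farthest from it.

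The question of this comparison was whether the difference between TRAMP DLP and wild-type DLP is smaller than that between carcinoma and wild-type prostate. In a fit of all 16 arrays, the NECa difference exceeded the DLP difference for 18 of the 34 genes and fell short of it for 0 (limma, adjusted p under 0.05). Of all genes, 10.1% were called in this direction and 11.4% in the other. The median excess was 0.70 log2 units, and the same median for all genes 0.06. All 34 fitted values were above 0, as were those of 60.9% of all genes. Across the 34 genes the 2 differences had a Spearman correlation of 0.77 and a Pearson correlation of 0.79, as a description of genes measured on the same arrays, with no array shared between the 2 differences. Over the 34 genes, a larger difference in carcinoma thus tended to go with a larger one in TRAMP DLP. The probes near background (Orc1, Pola1, Pole2, Gmnn and Prim1) have small values in both differences and may raise these correlations. Correlations without them were not computed. Rrm2 departed from the tendency, at 3.47 in vehicle NECa and 0.27 in vehicle DLP, as did Cdc45, at 3.07 and 0.82.

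The genes with the largest excess in NECa belong to helicase activation and nucleotide synthesis, with 1 of origin recognition. Rrm2 had the largest, 3.19 ± 0.24 in log2 units (limma adjusted p = 7.71e-07). Cdc45 followed with 2.25 ± 0.24 (limma adjusted p = 1.29e-05) and Mcm10 with 1.82 ± 0.21 (limma adjusted p = 3.33e-05). The excess was 1.38 ± 0.23 for Orc6 (limma adjusted p = 0.000632) and 1.36 ± 0.19 for Tk1 (limma adjusted p = 0.000161). By role, the excess was called for 5 of 5 nucleotide synthesis genes, 2 of 2 genes of helicase activation and 2 of 2 of chromatin assembly. It was called for 4 of 6 MCM2-7 subunits, 2 of 7 polymerase and primase genes, and 1 each of 5 loading, 4 clamp and 3 ligase and single-strand binding genes.

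At the other end, 16 genes were not called. The excess of Rpa1 was 0.04 with a 95% interval of -0.33 to 0.40 (limma adjusted p = 0.911). That of Mcm6 was 0.21 with an interval of -0.35 to 0.77 (limma adjusted p = 0.637), and that of Pcna was 0.19 with an interval of -0.24 to 0.62 (limma adjusted p = 0.566). Pole2, Orc1 and Pola1, at 0.05, 0.07 and 0.13, had probes near background in every group. Lig1 was at 0.39 (limma adjusted p = 0.2) and Cdt1 at 0.55 (limma adjusted p = 0.159), so the excess was called for neither. Compared directly, both were higher in vehicle NECa than in vehicle DLP. Lig1 differed by 0.37 (limma adjusted p = 0.0373) and Cdt1 by 0.49 (limma adjusted p = 0.0338). Closest to the threshold among the called genes was Mcm5 at 0.70 (limma adjusted p = 0.0275). Among those not called, the closest were Gmnn at 0.21 (limma adjusted p = 0.0917), Rfc5 at 0.57 (0.102) and Mcm4 at 0.58 (0.105). The call of Mcm5 was lost in 7 settings, among them those without wild-type DLP at 16 weeks (limma adjusted p = 0.181), vehicle DLP at 16 weeks (0.184), vehicle NECa 2 (0.0567) or 3 (0.055), and wild-type prostate 1 (0.0674) or 2 (0.0648). With DLP at 28 weeks only, 9 of the 34 genes were called.

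**Figure D4:**
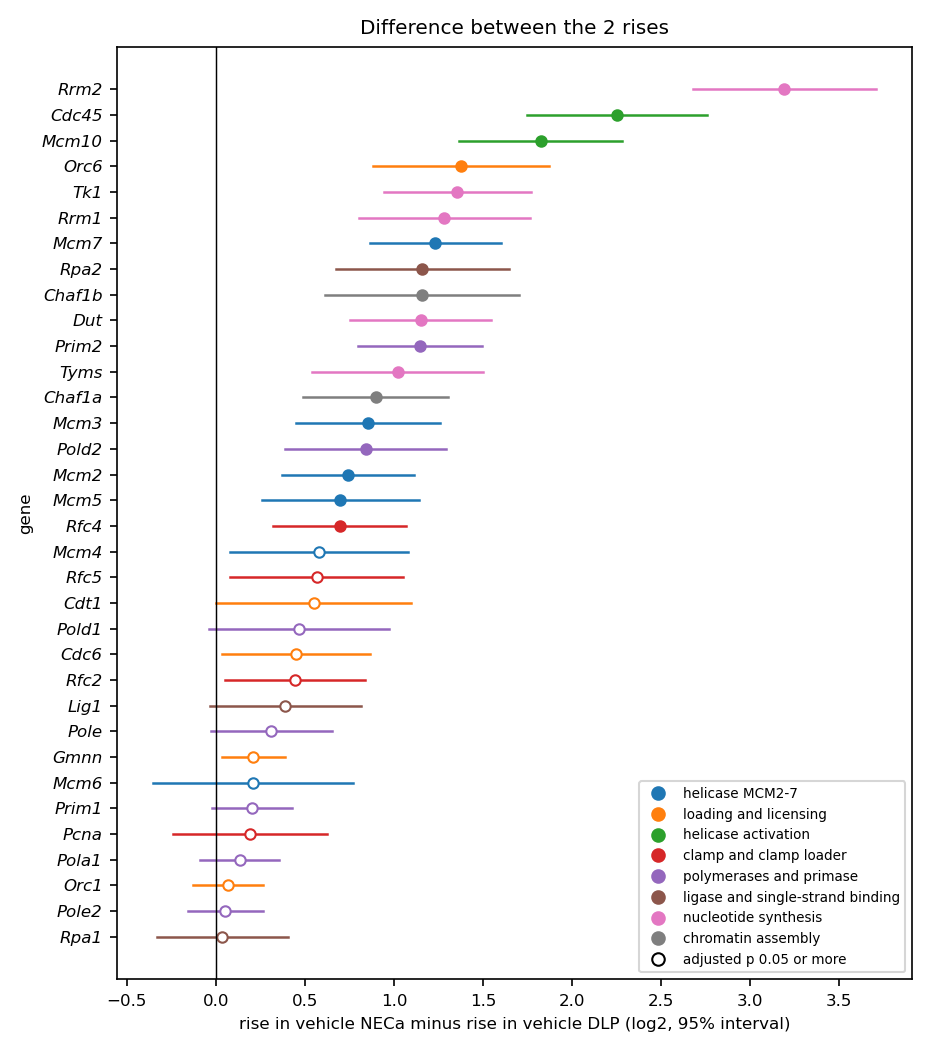
Excess of the log2 difference in vehicle NECa over that in vehicle DLP for the 34 genes, with 95% intervals, filled where the adjusted p is under 0.05. The values run from 0.04 for Rpa1 to 3.19 for Rrm2.

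Differences were also taken on the linear scale, which a constant background does not compress. Of the 29 genes called in NECa, Rpa1 had the highest share and Rrm2 the lowest. The increase of Rpa1 in vehicle DLP over wild-type DLP was 108% of its increase in vehicle NECa over wild-type prostate. For Mcm6 it was 83.2%, for Rfc4 74.8%, for Lig1 72.8% and for Mcm4 71.2%. Mcm5 had 54.4% and Mcm2 42.7%. For Mcm10 it was 18.4%, for Pold2 17.7%, for Dut 15.5%, for Cdc45 9.65% and for Rrm2 2.32%. These shares were not tested.

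Where a gene had several probes, some did not give the same excess. Mcm6 has 4 probes, and the one with the third-highest mean level differed by 1.70 in vehicle NECa and by 2.53 in vehicle DLP, an excess of -0.83 (limma adjusted p = 0.0328), opposite in sign to the probe used. A further probe of Mcm6 gave 3.07, 2.60 and an excess of 0.47 (limma adjusted p = 0.191). Lig1 had 2 other probes with called excesses of 0.63 and 0.94, although the brightest probe was not called. The second probe of Rrm2 gave 2.48 in NECa, 0.23 in DLP and an excess of 2.25 (limma adjusted p = 4.31e-06), and that of Mcm10 gave 1.19, 0.06 and 1.14 (limma adjusted p = 6.17e-05). The small DLP difference of Rrm2 was thus measured by both of its probes. For Tyms, another probe also had a called excess, of 0.71 (limma adjusted p = 0.00942). Its remaining probes did not, at 0.03 (limma adjusted p = 0.844), 0.20 (0.129) and 0.30 (0.0648). The called excess was not repeated by the second probe of Prim2, at 0.23 (limma adjusted p = 0.369), or Rpa2, at 0.08 (0.729). Nor was that of Rfc4, at 0.01 (0.968), Cdc45, at 0.15 (0.27), or Tk1, at 0.40 (0.139) and 0.20 (0.158). The mean log2 levels of these uncalled probes ran from 7.16 for Cdc45 to 7.94 for Prim2. Cdc6 had another probe with a called excess of 0.45 (limma adjusted p = 0.0445), although its brightest probe was not called. Its remaining probes, at 0.07 (limma adjusted p = 0.714) and 0.19 (0.224), were not called either.

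The tissues were also compared directly. Vehicle NECa were higher than vehicle DLP for 24 of the 34 genes and lower for 0 (limma, adjusted p under 0.05), where 29.1% of all genes were called higher and 17.3% lower. The largest direct difference was that of Rrm2 at 3.10 ± 0.16 (limma adjusted p = 5.83e-09), and Rpa1 was at -0.15 (95% interval -0.40 to 0.10, limma adjusted p = 0.277). Rfc4, whose excess was called, was not called directly, at 0.10 (95% interval -0.15 to 0.36, limma adjusted p = 0.447). Between wild-type whole prostate and wild-type DLP, Rfc4 was the one gene called, lower in whole prostate by -0.59 (limma adjusted p = 0.0161), where 2.57% of all genes were called lower and 3.39% higher. The call of Rfc4 was lost without wild-type prostate 1 (limma adjusted p = 0.102) or 2 (0.0503), without wild-type DLP at 28 (0.0843) or 16 weeks (0.136), and with array weights.

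AGN NECa gave the same picture against wild-type prostate. There 30 of the 34 genes were higher, with 14.1% of all genes called higher and 19.3% lower, and the median difference was 2.24. The wild-type arrays are shared with the vehicle comparison. Prim1 was the added gene, at 0.21 (limma adjusted p = 0.05 after rounding), with readings of 165, 155 and 175 in the AGN NECa and 157, 164 and 156 in the vehicle NECa, against 149 and 135 in the wild-type prostates. Its call was lost in 7 alternative settings, at a limma adjusted p of 0.115 and 0.178 without AGN NECa 1 or 3, 0.0763 without vehicle NECa 3 and 0.339 without wild-type prostate 2.

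Between AGN NECa and vehicle NECa limma called 0 of the 34 genes at an adjusted p under 0.05, where 0.0121% of all genes were called higher and 0.0482% lower. At an unadjusted p under 0.05 there were 2 of the 34 genes, Tyms and Cdc6, and 6.14% of all probes, so the share of the members is near the background. Limma with array weights called 3 genes, Tyms and Cdc6 higher and Pold2 lower. The log2 differences ran from -0.28 for Chaf1b to 0.39 for Tyms. Chaf1b read 2004, 2133 and 2048 in the AGN NECa, below the 2161, 3026 and 2416 of the vehicle NECa, and its 95% interval was -0.63 to 0.06. Tyms read 2528, 2545 and 2656 in the AGN NECa, above the 1881, 2254 and 1784 of the vehicle NECa, with an interval of 0.07 to 0.71 (limma adjusted p = 0.639). Cdc6 differed by 0.32 (interval 0.00 to 0.63). Over the 34 genes the intervals lay within -0.63 to 0.71, and larger differences lay outside them.

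In DLP no gene was called between treatments by limma in 3 comparisons, AGN against vehicle, D/DA against vehicle and AGN against D/DA, and 0% of all genes were. At an unadjusted p under 0.05 there were 0, 1 and 0 of the 34 genes, and 4.55%, 8.39% and 2.99% of all probes; the 1 gene was Gmnn, near background, at 0.14. The differences of AGN from vehicle ran from -0.26 for Mcm10 to 0.21 for Chaf1a, and their 95% intervals lay within -0.60 to 0.53. Those of D/DA from vehicle ran from -0.19 for Tyms to 0.22 for Rfc2, with intervals within -0.53 to 0.52. Those of AGN from D/DA, the extract against its main coumarins, ran from -0.16 for Rrm2 to 0.24 for Pold2, with intervals within -0.45 to 0.51. The doses behind these comparisons are not given in the sources used here.

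On each TRAMP DLP array most of the genes read above wild-type DLP of the same age. The median difference of the 34 genes was 1.14 in AGN DLP, 1.15 in D/DA DLP and 1.23 in vehicle DLP at 28 weeks, and 0.95 in AGN DLP, 0.84 in D/DA DLP and 0.86 in vehicle DLP at 16 weeks. The number of genes at least 1 log2 unit above wild type was 20 in AGN, 21 in D/DA and 21 in vehicle DLP at 28 weeks, and 16 in AGN, 13 in D/DA and 15 in vehicle DLP at 16 weeks. Mcm5 had the largest value on all 6 arrays, between 2.76 and 3.28. These values have no replicates, and the share of all genes past the same cut was not computed.

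The age comparison in TRAMP DLP asked whether the genes went on rising between the ages sampled. Over the 3 treatments, 32 of the 34 genes were higher at 28 than at 16 weeks in the fit, against 53.3% of all genes, with a median difference of 0.18 on the log2 scale. Pcna was the one gene called higher by limma, where 0.838% of all genes were called higher and 1.05% lower, and 16 of the 34 had an unadjusted p under 0.05, as did 12.5% of all probes. Pcna read 223 in AGN, 225 in D/DA and 258 in vehicle DLP at 28 weeks, against 181 in AGN, 184 in D/DA and 200 in vehicle DLP at 16 weeks, so the ages did not overlap. Its difference was 0.32 ± 0.06 (limma adjusted p = 0.0256). Tyms had the largest difference, 0.42 ± 0.09 (limma adjusted p = 0.051), with 996, 1008 and 1248 in AGN, D/DA and vehicle DLP at 28 weeks against 789, 789 and 832 at 16 weeks. The call of Pcna was lost without AGN DLP at 28 weeks (limma adjusted p = 0.0857), AGN DLP at 16 weeks (0.0995) or D/DA DLP at 16 weeks (0.0543). The number of genes called was 0 without either AGN array, 8 without either vehicle array and 2 without D/DA DLP at 28 weeks.

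Within treatments the median difference of 28 from 16 weeks was 0.15 in AGN DLP, 0.26 in D/DA DLP and 0.20 in vehicle DLP. In wild-type DLP it was -0.10, with 25 of the 34 genes lower at 28 weeks. Each of these differences is between 1 array and 1 array, and the same values over all genes were not computed. The median log2 of all probes was 7.30 on wild-type DLP at 28 weeks and 7.31 at 16 weeks. The test of whether the TRAMP difference from wild type grew with age called 0 of the 34 genes in limma, where 0.796% of all genes were called higher and 1.48% lower, and 12 had an unadjusted p under 0.05, as did 14.6% of all probes. The largest fitted growth was that of Chaf1b at 0.63 (limma adjusted p = 0.131). Beside these values, 3 of 5 macrophage and 4 of 8 adipocyte genes were higher and 7 of 9 skeletal muscle and 3 of 8 secretory genes were lower at 28 weeks in TRAMP DLP. The mean log2 level of the macrophage genes was 9.01 in AGN, 8.96 in D/DA and 9.31 in vehicle DLP at 28 weeks, against 8.58, 8.49 and 8.70 at 16 weeks. Their part in the age differences was not tested.

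**Figure D5:**
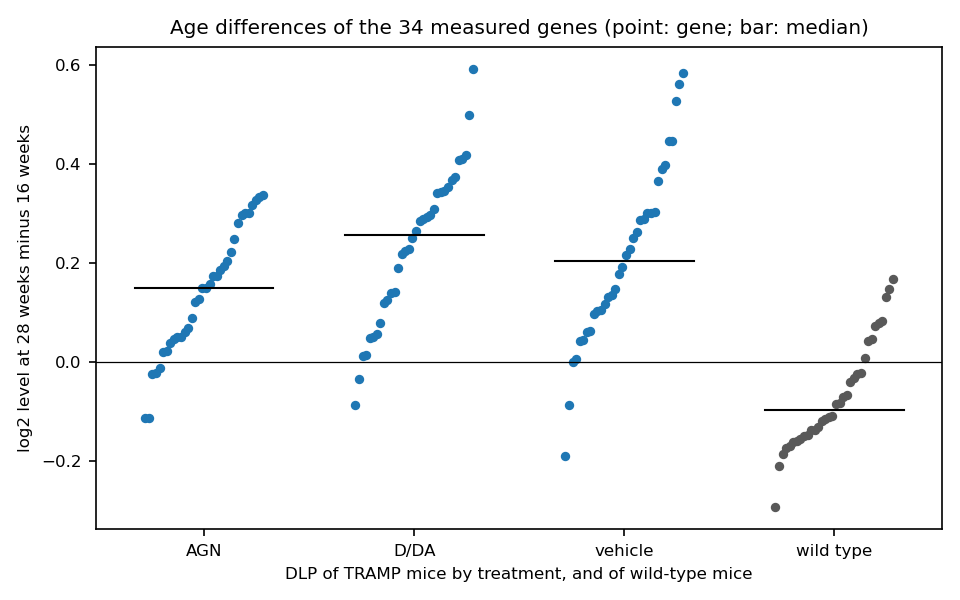
Log2 level at 28 weeks minus that at 16 weeks in DLP for each of the 34 genes (points, in order of size within a group), for TRAMP mice given AGN, D/DA or vehicle and for wild-type mice, with bars at the median. The medians are 0.15, 0.26 and 0.20 in the TRAMP groups and -0.10 in wild type.

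Other genes of the same pathways give the setting. Of 37 further replication factors measured, 25 were higher and 1 was lower in vehicle NECa, and 19 were higher and 0 lower in vehicle DLP. Over all genes, 12.8% were called higher and 18.8% lower in NECa, and 3.41% higher and 5.15% lower in DLP. Uhrf1, which passes DNA methylation to the new strand, differed by 3.83 in vehicle NECa and 2.51 in vehicle DLP. The checkpoint mediator gene Clspn differed by 3.30 and 1.45, the fork protection gene Tipin by 2.61 and 1.32, and its partner Timeless by 2.26 and 1.50. Pold4, the small subunit of polymerase delta, was the gene that was lower in NECa, at -1.14 in log2 units (limma adjusted p = 2.06e-05).

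Nucleotide enzymes outside the list moved in both directions. Of 31 measured, 11 were higher and 9 lower in vehicle NECa, and 6 were higher and 4 lower in vehicle DLP. Of all genes, 12.8% were higher and 18.8% lower in NECa, and 3.41% higher and 5.15% lower in DLP. Umps, of pyrimidine synthesis, Prps1, which makes the ribose donor, and the CTP synthase gene Ctps2 were higher in NECa, at 1.25, 1.18 and 1.05. In vehicle DLP Umps and Ctps2 were also called higher, at 0.40 and 0.54, and Prps1, at 0.50, was not called (limma adjusted p = 0.0938). Cad, which starts pyrimidine synthesis, was lower in both tissues, at -1.75 in vehicle NECa (limma adjusted p = 5.43e-07) and -0.83 in vehicle DLP (limma adjusted p = 0.00841). The guanylate kinase gene Guk1 was lower in NECa at -1.61. In DLP the folate enzyme gene Shmt1 was higher at 0.85 and its mitochondrial counterpart Shmt2 lower at -0.56. Samhd1, which breaks down deoxynucleotides, was lower in vehicle NECa at -0.58 (limma adjusted p = 0.00624) and higher in vehicle DLP at 0.58 (limma adjusted p = 0.0217). Dctd, the dCMP deaminase, was higher in both, at 0.88 in vehicle NECa and 0.55 in vehicle DLP.

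Of 27 mitosis genes, 19 were higher in vehicle NECa and 18 in vehicle DLP, with 0 lower in either. Their median was 2.61 in NECa and 0.82 in DLP, and the excess in NECa was called for 18. The shares of all genes called higher were 12.8% in NECa, 3.41% in DLP and 10.1% for the excess. Those called lower were 18.8% in NECa and 5.15% in DLP. Cenpa, the centromeric histone, differed by 4.95 and 2.45, the spindle midzone gene Prc1 by 4.51 and 2.36, and Birc5, which encodes the chromosomal passenger protein survivin, by 4.37 and 1.67. Of 16 G1 and E2F genes, 12 were higher and 2 lower in NECa, and 7 higher and 2 lower in DLP. E2f1 differed by 3.40 in vehicle NECa and 1.65 in vehicle DLP, and Cdkn2a, which encodes a cyclin D kinase inhibitor, by 2.75 and 2.38. E2f2 differed by 3.11 in vehicle NECa and 0.34 in vehicle DLP, and the kinase gene Cdk2 by 2.01 and 1.18. The cyclin D genes Ccnd1 and Ccnd2 were lower in both tissues, Ccnd1 at -4.52 in vehicle NECa and -1.26 in vehicle DLP.

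The genes outside the list whose pattern was most like the mean of the 34 genes over the 16 arrays were Prc1, Knstrn and Cdk1 with a Pearson correlation of 0.991 each, Itgb3bp with 0.990 and Hirip3 with 0.989. Cdk1, the mitotic cyclin-dependent kinase, differed by 4.02 in vehicle NECa and 2.12 in vehicle DLP. These correlations describe arrays that fall into carcinoma, TRAMP DLP and wild-type tissue, and they carry no p.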

How the data were processed

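Total RNA of 16 prostate tissue samples was hybridised to Illumina bead arrays. The deposited intensity values were linear and normalized by the authors; lumi is named in the submitters' processing notes, with no version, and the normalization and background treatment are not given in the sources used here. A second, unnormalized table was left out, as its 32 per-sample columns have names found in no sample label, and with it the detection p-values. All 25697 probes were tested. The platform annotation gave 1 symbol to 23978 probes and 0 had several, while 1719 were unnamed; through RefSeq (GRCm38.p6) 23962 probes matched and 0 symbols changed.

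Log2 intensities were modelled in R 4.3.3 with limma 3.58.1 (lmFit, eBayes with an intensity trend, two-sided). A call is an adjusted p below 0.05, by the Benjamini-Hochberg method across every probe. NECa groups and wild-type prostates were fitted on 8 arrays, AGN and vehicle NECa on 6, DLP on 8 with additive terms for 4 treatments and 2 ages, TRAMP DLP ages on 6, and comparisons between tissues on all 16. The additive DLP fit assumes equal age differences in all treatments; its 3 residual degrees of freedom hold array noise and any departure from this. The growth of the TRAMP difference with age was fitted with 2. In simulated data with independent noise of equal spread in all groups, the scripts recovered the mean size of known changes. How often such changes were called is not given here. The number of arrays limits the precision, and nothing in the labels says that replicates came from separate animals. Replicates correlated at 0.969 to 0.987 and shared 0 identical values.

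The 37 genes, the other lists and the alternatives were chosen with earlier results of these data known, the 37 by function and with no cut on their values. Values on every array are given for the genes with the largest and smallest NECa difference in each role, the 3 with the largest DLP difference, the 5 at each end of the excess, genes called between treatments or ages, and genes whose probes disagree in sign. Of other lists the 3 largest changes in each direction were considered, and those called are named. The most similar genes are the 5 with the highest Pearson correlation with the mean of the members' z-scored levels. Alternatives were quantile and median scaling, normexp, probes above the median level, no trend, array weights, the mean of all probes, leaving out each array, a replicate block, DLP at 28 weeks only and a common baseline.

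Replicate numbers are shared by AGN and vehicle NECa. Same-numbered arrays had deviations from their group means that correlated at -0.04, -0.26 and 0.16 for numbers 1, 2 and 3, so the numbers were not taken to pair the samples.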

Additional observations from a re-analysis of the deposited data

Results flagged for a closer look

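For 18 genes the log2 difference of vehicle NECa from wild-type prostate was larger than that of vehicle DLP from wild-type DLP, by a test of the difference itself (limma on 16 arrays, adjusted p under 0.05, where 10.1% of all genes were called in this direction). The excess was 3.19 for Rrm2, 2.25 for Cdc45, 1.82 for Mcm10, 1.38 for Orc6, 1.36 for Tk1 and 1.28 for Rrm1. It was 1.23 for Mcm7, 1.16 for Rpa2, 1.16 for Chaf1b, 1.15 for Dut, 1.15 for Prim2 and 1.02 for Tyms. It was 0.90 for Chaf1a, 0.85 for Mcm3, 0.84 for Pold2, 0.74 for Mcm2, 0.70 for Mcm5 and 0.70 for Rfc4. Rfc4 was not called between vehicle NECa and vehicle DLP directly, at 0.10 (limma adjusted p = 0.447). Its wild-type level was lower in whole prostate than in DLP, by -0.59. Tissue source, cell composition and carcinoma differ together between these contrasts and cannot be told apart. No group of replicates was large enough to test for a single array far from the others.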

How the results depend on the processing

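No named call changed sign under the alternatives run, in any of the comparisons. Of the 29 calls in vehicle NECa against wild-type prostate, 0 were lost under any alternative. The count ran from 29 to 31: 31 higher with median centring, which added Gmnn and Prim1, and 29 higher and 2 lower (Orc1 and Pola1) with normexp. In AGN NECa normexp also gave 29 higher and 2 lower (Orc1 and Pole2). Without wild-type DLP at 28 weeks, 26 genes were higher and 1, Pola1, lower in vehicle DLP. With array weights Rpa1 was lower in vehicle NECa than in vehicle DLP (-0.24, limma adjusted p = 0.0106). With the replicate block, 29 of the 34 genes were called in vehicle NECa and 29 in AGN NECa against wild-type prostate, and 0 between AGN and vehicle NECa; the numbers do not pair the samples, and no other comparison shares them.

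Leaving out each array in turn, the genes called numbered 29 to 29 in vehicle NECa, 29 to 30 in AGN NECa, 20 to 27 in vehicle DLP, 15 to 21 for the excess in NECa and 18 to 27 in vehicle NECa against vehicle DLP. Without vehicle DLP at 28 weeks the DLP call of Pole (limma adjusted p = 0.0741) was among those lost. The excess was called for 9 genes with DLP at 28 weeks only. With array weights, 3 genes were called in AGN NECa against vehicle NECa (2 higher, 1 lower), and the cause was not tested.

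For TRAMP DLP at 28 against 16 weeks, where 1 gene was called, the count was 3 with quantile normalization, 2 with normexp, 2 with probes above the median level, 0 without the intensity trend and 4 with array weights. Leaving out single arrays it ran from 0 to 8. For the growth of the TRAMP difference with age it ran from 0 to 4, with 4 without either vehicle array; leaving out a wild-type DLP array could not be fitted. Between wild-type prostate and wild-type DLP, 1 gene was called, 3 without the intensity trend and 0 with array weights, and leaving out single arrays it ran from 0 to 1. Normexp moved the median of all probes to -0.20 in vehicle NECa, from -0.00 as deposited, and to -0.14 for the excess, from 0.06; 18 genes were then called for the excess, all higher. Probes near the array median (Orc1, Pola1, Pole2, Gmnn, Prim1) give only compressed differences.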
